A study of Sparus aurata with 30 samples.

Results

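The complement system is a cascade of plasma proteins that marks microbes and can lyse them. Its terminal arm starts when C5 is cleaved: C5b then binds C6, C7 and C8, and the complex seeds a ring of C9 subunits that forms a pore in the target membrane, the membrane attack complex. Host cells are shielded by surface regulators such as CD55, the decay-accelerating factor, which in mammals takes apart the convertases that cleave C3 and C5. The liver is the main source of the soluble components in vertebrates.

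Followed here were the transcripts of 5 genes of Sparus aurata, the gilthead sea bream, which is farmed in seawater: c7, c8a, c9, cd55 and lect2. They were taken by exact gene symbol from the 25722 genes of the count files, and all 5 were present. Of these 25722 genes, 15526 carry a LOC number in place of a symbol. A gene not found by symbol, or a further copy of a member, may be among them. The genes c7, c8a (the alpha chain of C8) and c9 encode pore components, and cd55 the regulator of the step before. The fifth, lect2 (leukocyte cell-derived chemotaxin 2), is not a complement gene: it encodes a secreted protein, made mainly by the liver in mammals, that was named for its attraction of neutrophils.

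The fish had been fed an SDY diet, which contained 30% Brewer's spent dry yeast with 31.4% plant proteins and 10% fish meal replaced, or the control diet. RNA from head kidney (the blood-forming organ of bony fish), intestine and liver was sequenced, with 5 libraries for each of the 6 tissue and diet groups. The labels give no age, sex, tank or feeding time, and do not say whether same-numbered libraries of different tissues came from the same fish. Left out were 2 libraries of the head kidney control group, which leaves 3 controls in that tissue (replicates 2, 4 and 5) and 28 libraries in all. Replicate 1 of that group held 926 counts in total, and replicate 3 carried liver transcripts, with 9 hepatocyte markers summing to 19459.6 CPM on its plain total.

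The 28 libraries held 9276705 to 20580440 counts, the lowest total being that of liver SDY replicate 3. Values are given as CPM (a gene's reads relative to the library total) scaled by TMM, a method that corrects library totals for a few very abundant genes. Hepatocyte, enterocyte and erythroid markers were highest in liver, intestine and head kidney. The summed CPM on plain totals of 9 hepatocyte markers was 24552 to 42379 in SDY livers and 36272 to 41290 in control livers. It was 147 to 212 in SDY intestines and 216 to 362 in control intestines, and 13 to 85.8 in SDY head kidneys and 22.2 to 36.9 in control head kidneys. Carboxypeptidase B1 (cpb1), the 1 exocrine pancreas marker found, was at 3629 CPM or more in every liver library. The 3 enterocyte markers found summed to 2315 CPM or more in intestine and to 259 CPM or less elsewhere, and 4 erythroid markers to 774 CPM or more in head kidney and 154 CPM or less elsewhere. The 7 renal tubule markers found summed to 2089 CPM or more in intestine and 8.58 CPM or less in head kidney. Since each library is bulk tissue, fewer cells of a type and less RNA per cell cannot be told apart.

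On assembly fSpaAur1.1, c7 lay on chromosome 12 (5843242 to 5854958, minus strand), 364 bases from the end of c6. A different stretch of chromosome 12 held c9 (22993669 to 23010076, plus strand), whose first 2967 bases overlap the start of dab2, an endocytic adaptor gene on the minus strand. The gene c8a lay on chromosome 21 (11027412 to 11032376, minus strand), 2755 bases from c8b, which encodes the C8 beta chain. The regulator cd55 lay on chromosome 6 (10447277 to 10458513, minus strand) with 7 annotated mRNAs, and lect2 on chromosome 20 (27979182 to 27981197, minus strand). Counts were made over whole mRNA spans, introns included, so levels of different genes are not compared with each other.

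The pore genes c7, c8a and c9 and the secreted lect2 were liver transcripts, while cd55 was the one member with its lowest level in liver. For c7, c8a, c9 and lect2 the lowest liver library lay above the highest library of either other tissue, and no liver library of cd55 reached the lowest head kidney library. Thus liver did not overlap intestine in 4 of 5 members (39.1% of all genes tested) and did not overlap head kidney in 5 of 5 (46.3%). In the contrasts of liver over intestine and of liver over head kidney, all 5 members passed the threshold of an adjusted p of 0.05 by edgeR's quasi-likelihood test with Benjamini-Hochberg adjustment. So did 78.8% and 75.0% of all 20296 genes tested in these contrasts, so passing says little about a member by itself.

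**Figure D1:**
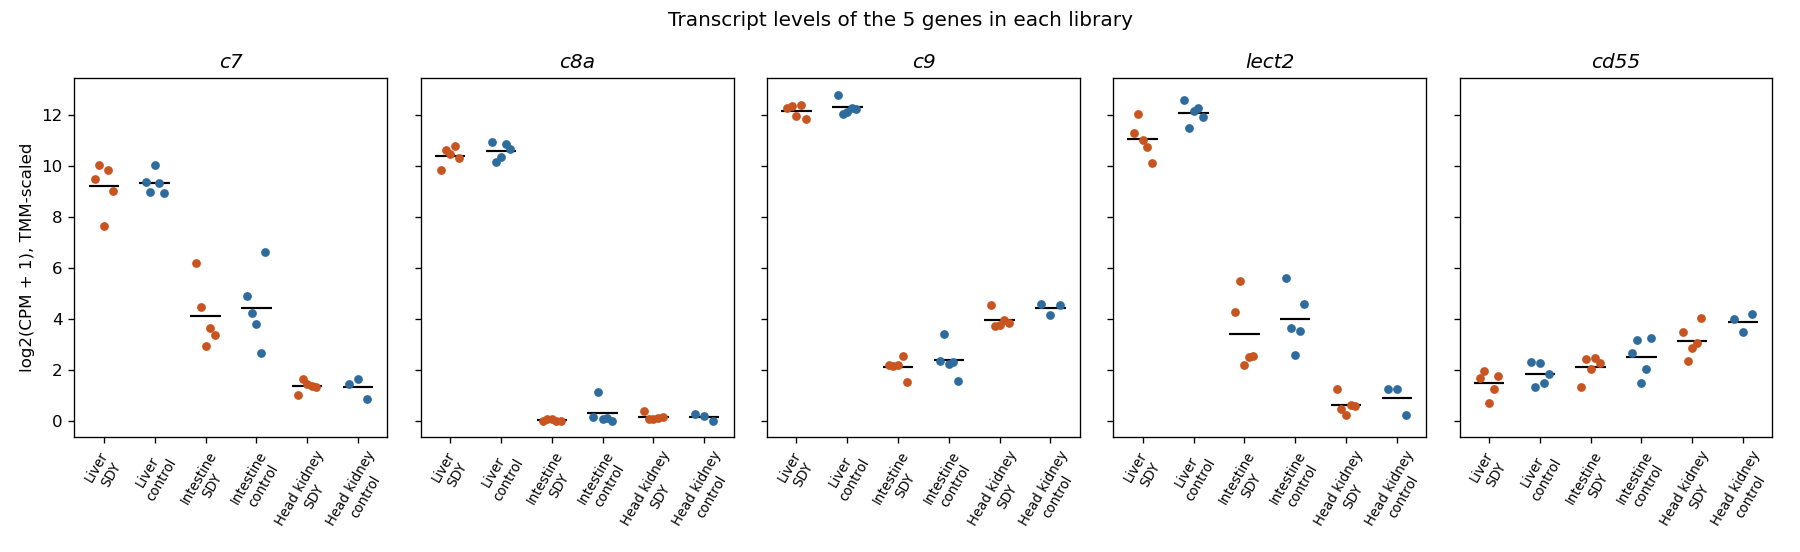
Level of each member, as log2(CPM + 1) on the TMM scale (vertical axis), in every library of the 6 groups (horizontal axis); points are libraries, SDY in orange and control in blue, and bars are group means of the plotted values. The liver libraries of c7, c8a, c9 and lect2 stand above all others, cd55 runs the other way, and SDY and control libraries of the same tissue overlap in every panel.

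c7, the component that first anchors the growing complex in the membrane, had 704, 1056, 198, 919.5 and 511 CPM in the SDY livers (replicates 1 to 5), against 653, 503, 1034, 648 and 489 CPM in the control livers. The SDY livers held both the lowest and the highest library, so the control libraries lay within their range. In SDY intestines c7 had 71.1, 21.2, 6.65, 11.5 and 9.18 CPM, against 28.7, 17.6, 12.7, 5.29 and 96.4 CPM in control intestines. A single library in each intestinal group stood high, replicate 1 on SDY and replicate 5 on the control diet, and the rest lay below 30 CPM.

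In head kidney c7 had 1.0, 2.11, 1.74, 1.54 and 1.52 CPM on SDY, against 1.67, 2.12 and 0.805 CPM on the control diet. The order of the groups was thus liver, intestine and head kidney, with no overlap between tissues and full overlap between diets within each. The edgeR log2 difference of liver over intestine was 4.6 (SE 0.50, adjusted p = 7.57e-09), and that of liver over head kidney was 8.74 (SE 0.75, adjusted p = 8.34e-11). Intestine over head kidney gave 4.15 (SE 0.59, adjusted p = 7.39e-07).

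c8a, which carries part of the C8 contact with the membrane, was close to absent outside the liver. Its level was 919, 1556, 1402, 1728 and 1267 CPM in SDY livers, against 1973, 1117, 1294, 1856 and 1593 CPM in control livers. All 10 intestinal libraries together held 32 reads of c8a, and 25 of them came from control replicate 2, at 1.19 CPM. Each of the SDY intestines had 0 or 1 read, which is under the 3 counts that a count of 0 allows (0.0980 to 0.164 CPM in this tissue).

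The 8 head kidney libraries held 22 reads of c8a in all, 8 of them in SDY replicate 1, at 0.297 CPM. The fitted log2 differences of liver over intestine (14.15, SE 0.67, with an edgeR adjusted p of 6.3e-16) and of liver over head kidney (13.68, SE 0.79, with one of 3.08e-14) rest on these few reads and their exact size is loose. Between intestine and head kidney c8a did not pass the threshold (−0.47, SE 0.72, edgeR adjusted p = 0.565). Without control intestine replicate 2 this contrast did pass (−1.59, adjusted p = 0.0196), so that 1 library decides the call.

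c9, the ring-forming subunit, had 4897, 5174, 3954, 5279.9 and 3649 CPM in SDY livers, against 7064, 4223, 4467, 4969.6 and 4768 CPM in control livers. Control replicate 1 stood above the other 9 liver libraries, which overlapped. The log2 difference of liver over intestine was 10.25 (SE 0.32, edgeR adjusted p = 1.73e-19) and that of liver over head kidney 8.12 (SE 0.36, adjusted p = 1.35e-16).

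The lesser c9 signal ran opposite to that of c7 in the other tissues, being higher in head kidney than in intestine. In intestine c9 had 3.51, 3.40, 3.54, 4.79 and 1.89 CPM on SDY, against 4.12, 9.41, 3.61, 3.92 and 1.96 CPM on the control diet. In head kidney it had 21.9, 12.1, 12.4, 14.4 and 13.3 CPM on SDY, against 22.8, 16.5 and 22.1 CPM on the control diet. The highest intestinal library lay below the lowest head kidney library, and intestine over head kidney gave a log2 difference of −2.13 (SE 0.23, edgeR adjusted p = 1.02e-08).

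Counting ignored strand and gave a read to every gene whose span it touched. The reads of c9 can therefore include reads of dab2 from the 2967 shared bases. In liver c9 held 30.2 to 62.2 times as many reads as dab2. In intestine the c9 count was 2.16% to 9.57% of the dab2 count of the same library, highest in control replicate 2, and in head kidney 4.12% to 6.08%. For dab2 itself, intestine over head kidney gave a log2 difference of −1.78 (SE 0.19). Its diet differences were −0.36 (SE 0.21) in head kidney and −0.066 (SE 0.29) in intestine. How much of the head kidney and intestinal c9 signal comes from dab2 was not tested. Both the order of c9 between these tissues and its diet differences there carry this limit.

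**Figure D2:**
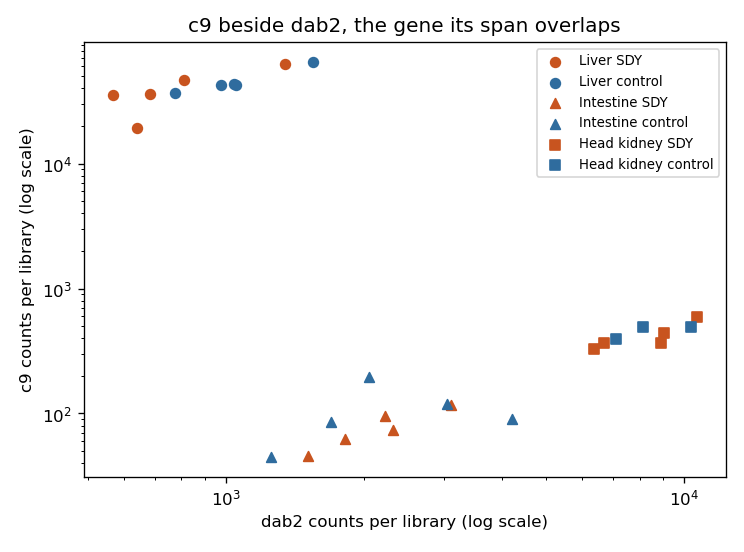
Reads of c9 (vertical axis) against reads of dab2 (horizontal axis), both on log scales, in each of the 28 libraries; circles are liver, triangles intestine and squares head kidney, with SDY in orange and control in blue. Liver libraries hold far more c9 than dab2 reads, while in the other tissues the c9 count stays between 2.16% and 9.57% of the dab2 count.

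lect2 had 2526, 4177, 2042, 1702 and 1091 CPM in SDY livers, against 6074, 2855, 4481, 4978 and 3879 CPM in control livers. SDY replicate 2 was the only SDY liver within the control range, and the other 4 lay below all 5 controls. In intestine lect2 had 18, 43.5, 3.59, 4.63 and 4.80 CPM on SDY, against 46.9, 11.4, 5.0, 10.5 and 22.9 CPM on the control diet, a wide spread in both diets.

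Head kidney lect2 was lower still, at 1.38, 0.371, 0.170, 0.524 and 0.472 CPM on SDY, against 1.39, 1.33 and 0.179 CPM on the control diet. Liver over intestine gave a log2 difference of 7.56 (SE 0.61, edgeR adjusted p = 2.25e-11), liver over head kidney 12.05 (SE 0.88, adjusted p = 3.35e-12) and intestine over head kidney 4.49 (SE 0.63, adjusted p = 7.05e-07). The intestine stood above the head kidney in c7 and lect2 without overlap between libraries. The summed hepatocyte markers also stood higher in intestine than in head kidney, at 147 CPM or more and at 85.8 CPM or less. Not every marker followed the sum. For the fibrinogen genes fgb and fgg, intestine over head kidney gave −0.40 (SE 0.61) and −0.017 (SE 0.54). The part of hepatocyte transcripts in the c7 and lect2 differences was not tested.

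cd55 had 2.22, 2.87, 0.615, 1.35 and 2.34 CPM in SDY livers, against 3.91, 1.48, 3.81, 1.77 and 2.56 CPM in control livers, from 3 to 37 reads per library. Intestines had 1.46, 4.33, 3.11, 4.55 and 3.77 CPM on SDY, against 5.31, 7.83, 1.79, 3.10 and 8.51 CPM on the control diet. Head kidneys had the highest levels, at 10.1, 4.04, 6.14, 7.17 and 15.3 CPM on SDY, against 14.8, 10.2 and 17.2 CPM on the control diet.

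In the order of group means, every neighbouring pair of the 6 cd55 groups overlapped, so the order is gradual and not stepwise. Between tissues the differences passed the threshold: −2.26 for liver over head kidney (SE 0.33, edgeR adjusted p = 7.69e-07), −1.36 for intestine over head kidney (SE 0.31, adjusted p = 0.000344) and −0.90 for liver over intestine (SE 0.31, adjusted p = 0.0101). On plain totals they were −3.73, −1.66 and −2.07 in the same order. In intestine over head kidney, 4 of the 5 members passed in all, beside 73.6% of the genes tested, and 3 of 5 did not overlap, beside 41.1%.

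The higher liver level of the pore genes extended to the other terminal components with one exception. Of the 7 terminal pathway genes found by symbol (c5, c6, c7, c8a, c8b, c8g and c9), 6 were higher in liver than in intestine and in head kidney by edgeR. Among these 6 are the members c7, c8a and c9, described above, and the further genes are c5, c8b and c8g. The medians below also include the members. The 7 had a median log2 difference of 11.30 over intestine and 13.29 over head kidney, beside −0.18 and −0.028 for all genes tested. Of all genes tested, 35.4% were higher and 43.4% lower in liver than in intestine, and 37.5% were higher and 37.5% lower than in head kidney. In intestine over head kidney, 3 of the 7 were higher and 1 lower, beside 38.5% and 35.0% of all genes. The C8 partners of c8a were also liver transcripts: c8b had 1269 ± 98.9 CPM in SDY livers and 1219 ± 198 CPM in control livers (SD, n = 5 each), and c8g, the gamma chain, 589 ± 81.2 and 721 ± 156 CPM.

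The exception was c6, the neighbour of c7, which encodes the protein that binds C5b first. It had 92.5 ± 20.5 CPM in SDY livers and 94.3 ± 33.9 CPM in control livers, 110.1 ± 17.6 CPM in SDY intestines and 131 ± 34.4 CPM in control intestines (SD, n = 5 each). Head kidneys had 122 ± 23 CPM on SDY (n = 5) and 98.7 ± 24.1 CPM on the control diet (SD, n = 3). The difference of liver over intestine was −0.36 (SE 0.16, edgeR adjusted p = 0.0417), and that of liver over head kidney was −0.23 (SE 0.17, adjusted p = 0.225). On plain totals c6 averaged 51.8 CPM in liver, 153 CPM in intestine and 180.0 CPM in head kidney.

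**Figure D3:**
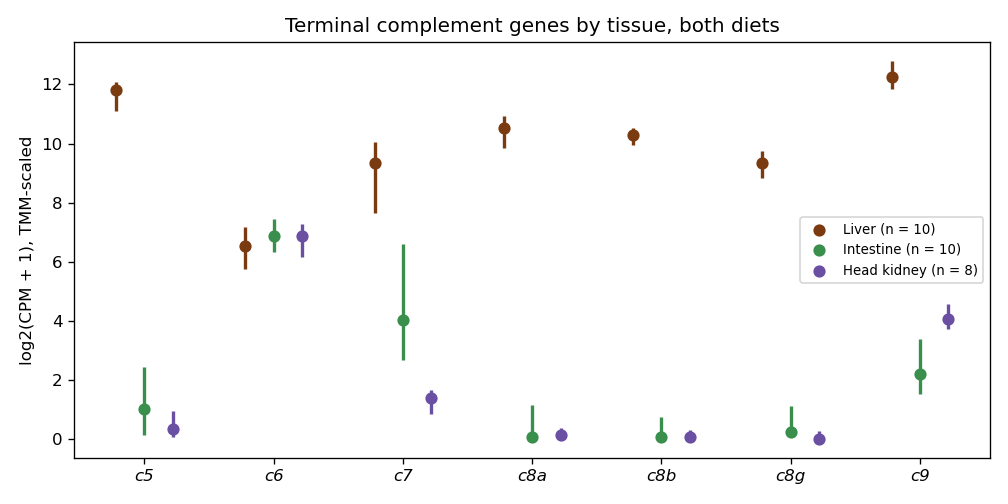
Level of the 7 terminal pathway genes by tissue, as log2(CPM + 1) on the TMM scale (vertical axis), with both diets together; points are medians over libraries and lines run from the lowest to the highest library (10 liver, 10 intestine and 8 head kidney libraries). Only c6 has overlapping ranges in the 3 tissues, and levels are to be read across tissues within a gene.

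Upstream of the pore, 3 of the 17 symbols on the classical and lectin pathway list were found: masp2, colec10 and colec11, all of the lectin pathway. No classical pathway gene was found by symbol, so that arm was not analysed. All 3 were higher in liver than in intestine and than in head kidney, beside 35.4% and 37.5% of all genes. The span of colec11 overlaps a gene on the opposite strand, so its counts can include reads of that gene. Of the 5 regulators, 3 were higher and 2 lower in liver than in intestine, and 3 were higher and 1 lower than in head kidney (c1qbp among the higher on the TMM scale). The protease gene masp2 of the lectin pathway had 132 ± 19.1 CPM in SDY livers and 116 ± 28 CPM in control livers, and colec10, a collectin that recognises sugars, 36.9 ± 3.77 and 38.6 ± 9.01 CPM (SD, n = 5 each). The gene c5 had 3555 ± 688 CPM in SDY livers and 3250.1 ± 868 CPM in control livers, and serping1, the inhibitor of the C1 proteases, 3447 ± 226 and 3532 ± 853 CPM.

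Among the 5 regulators found, clu, which encodes clusterin, shared with cd55 the lower level in liver than in intestine (−2.16, SE 0.54, edgeR adjusted p = 0.000888). The regulators cpn1 (the subunit of carboxypeptidase N that cuts anaphylatoxins), c1qbp and serping1 were higher in liver than in intestine, but c1qbp on the TMM scale alone: on plain totals it averaged 60.5 CPM in liver and 61.3 CPM in intestine. No symbol of the alternative pathway list or of the complement receptor list was found in the files, so those arms were not analysed here.

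Over all 28 libraries the profiles nearest to each member, by the root mean square difference of log2(CPM + 1) after each gene's mean was removed, were as follows. The nearest to c8a were c8b (0.227), itih2 (0.227) and tdo2 (0.310), and those to c9 were pla1a (0.731), shbg (0.742) and mst1 (0.753). The nearest to c7 were hoga1 (0.867), ret (0.883) and agxt2 (0.909), and those to lect2 agt (0.978), ppp1r3g (1.15) and ftcd (1.28). For cd55 they were pde7a (0.490), brd8 (0.491) and nfe2 (0.504), the last an erythroid transcription factor gene.

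Within a tissue, after the diet group means were removed and each profile was scaled, the nearest genes differed from these. Over the 10 liver libraries they were gid4 (0.339), zwilch (0.388) and dstyk (0.407) for c7, ptbp1 (0.324), tbkbp1 (0.347) and shc2 (0.353) for c8a, and ppm1f (0.341), galc (0.368) and prok2 (0.405) for c9. They were rabgef1 (0.480), isl1 (0.53) and gan (0.537) for lect2. No filter on level was applied to these genes. In SDY and control livers prok2 averaged 0.167 and 0.156 CPM, and isl1 0.0719 and 0.0695 CPM. Both are under the liver level of 3 counts (0.253 to 0.615 CPM), so their likeness rests on very few reads. Over the 8 head kidney libraries, jph1 (0.119), tspo (0.154) and plcxd3 (0.168) were nearest to cd55. All these genes were picked as the closest of the many genes with a symbol, over only 8 or 10 libraries. Close profiles can then arise by chance, and how close they come by chance was not tested.

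Whether the yeast diet changed these transcripts was asked in each tissue separately. No member passed the threshold in any tissue: 0 of 5 in liver, 0 of 4 in intestine and 0 of 4 in head kidney by edgeR, and 0 by DESeq2 in each. Over all genes 0.0% passed in liver, 0.0% in intestine and 0.00583% in head kidney by edgeR, and 0.603%, 0.258% and 1.39% by DESeq2, so few genes of any kind did. The SDY and control libraries of a tissue overlapped in every member, while 1.39% of the genes tested in liver, 0.834% in intestine and 7.26% in head kidney did not overlap. At an unadjusted p under 0.05, 1 member (lect2) stood out in liver, where 10.7% of all genes did, and 0 members did in intestine (6.5% of genes) and in head kidney (11.8%).

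lect2 in liver had the lowest p of the members, with a mean of 2307 ± 1168 CPM on SDY and 4454 ± 1203 CPM on the control diet (SD, n = 5 each). All 5 SDY livers lay below the control mean and 4 lay below every control library. The log2 fold change of SDY over control was −0.95 (95% interval −1.69 to −0.20, SE 0.34). It did not pass after adjustment, with an unadjusted p of 0.0177 and an adjusted p of 0.387 by edgeR, and an adjusted p of 0.177 by DESeq2. Among the 15010 genes tested in liver it ranked 205 from the lowest log2 fold change and 684 from the smallest p by edgeR.

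For the pore genes in liver the log2 fold changes were 0.012 for c7 (95% interval −0.82 to 0.84), −0.19 for c8a (−0.67 to 0.29) and −0.15 for c9 (−0.58 to 0.28). Diet differences of any size within these intervals remain possible with 5 livers per diet. With single livers left out, c8a ran from −0.29 (without control replicate 2) to −0.061 (without SDY replicate 1) and c9 from −0.21 to −0.0085 (without control replicates 2 and 1). Within single liver libraries, the ratio of lect2 to c9 counts was 0.492 ± 0.204 in SDY livers and 0.871 ± 0.138 in control livers (SD, n = 5 each), and 4 of the 5 SDY ratios lay below all control ratios. The ratio of lect2 to c8a was 1.75 ± 0.912 in SDY livers and 2.84 ± 0.423 in control livers, with 3 of 5 below all controls. These ratios do not depend on how libraries are scaled, but they were formed because lect2 stood low, and they have no test.

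By contrast the ratio of c9 to c8a was 3.48 ± 1.05 in SDY livers and 3.30 ± 0.451 in control livers, and that of c7 to c9 was 0.142 ± 0.0578 and 0.135 ± 0.0557. Hepatocyte markers summed to 27510 CPM in SDY liver replicate 1 and 24552 CPM in SDY liver replicate 3, below all 5 controls. SDY replicates 1 and 3 also had the highest cpb1 of all livers, at 14763 and 18738 CPM on plain totals. Control livers had 3629 to 12174 CPM of cpb1. The part of pancreas tissue in the marker sums was not tested. The lowest lect2 values on the TMM scale, 1702 and 1091 CPM, came from SDY replicates 4 and 5. On plain totals the marker sums of these libraries were 42379 and 39851 CPM, against 36272 to 41290 CPM in control livers. The sums include the fibrinogen genes fgb and fgg, which averaged 12126 and 7928 CPM over all livers on plain totals. The part of hepatocyte content in the lect2 values was not tested.

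**Figure D4:**
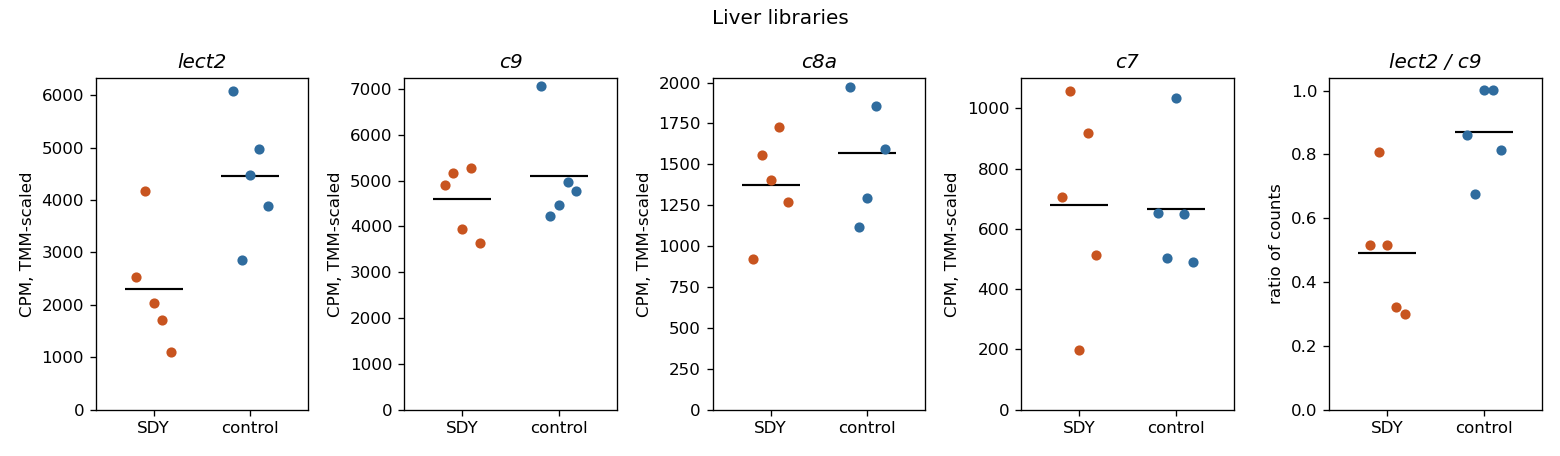
Liver CPM on the TMM scale of lect2, c9, c8a and c7 (first 4 panels, vertical axes from 0) and the ratio of lect2 to c9 counts (last panel) in the 5 SDY and 5 control livers; points are libraries and bars are group means. In lect2 and in its ratio to c9, 4 of 5 SDY livers lie below every control, whereas the diets overlap broadly in c9, c8a and c7.

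For cd55 the fitted fold change was below 0 in all 3 tissues, with no call in any. The same held for c9 and lect2, and the share of all genes with this pattern was not counted. In head kidney the mean of cd55 was 8.55 ± 4.36 CPM on SDY (n = 5) and 14.1 ± 3.57 CPM on the control diet (SD, n = 3), and 4 of 5 SDY libraries lay below all controls. The log2 fold change there was −0.73 (95% interval −1.58 to 0.12, unadjusted p = 0.0847, edgeR adjusted p = 0.465). In intestine it was −0.63 (−1.60 to 0.35, adjusted p = 0.875), with all 5 SDY libraries below the control mean, and in liver −0.51 (−1.38 to 0.37, adjusted p = 0.681), with 4 of 5. These became −0.38 without control intestine replicate 5 and −0.31 without SDY liver replicate 3.

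The summed CPM of 4 erythroid markers was 774 to 2168 in SDY head kidneys and 1642 to 2431 in control head kidneys, and that of 5 neutrophil markers was 1322 to 2137 and 1990 to 2077. Steroid and catecholamine gland markers (5 found) summed to 24.6, 17.4, 2241, 951 and 15.8 CPM in SDY head kidneys, against 2.67 to 8.39 CPM in control head kidneys, with no overlap. Of the single genes tested in head kidney, 7.26% did not overlap between the diets. The 5 macrophage markers found summed to 612 to 779 CPM on SDY and 527 to 617 CPM on the control diet. The part of these cell types in the head kidney values of cd55 and c9 was not tested.

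c9 in head kidney was 14.8 ± 4.04 CPM on SDY (n = 5) and 20.4 ± 3.45 CPM on the control diet (SD, n = 3). SDY replicate 1, at 21.9 CPM, was within the control range and the other 4 lay below it. The log2 fold change was −0.46 (95% interval −0.93 to 0.01, unadjusted p = 0.0523, edgeR adjusted p = 0.426). For dab2, whose reads the c9 count can include, it was −0.36 (SE 0.21). The part of dab2 reads in the c9 value was not tested. The head kidney fold changes of c7 and lect2 were 0.056 (−0.78 to 0.89) and −0.74 (−2.44 to 0.96), the second from 4 to 37 reads per library and running from −1.31 (without SDY replicate 1) to −0.38 (without control replicate 2). c8a was under the count filter there and in intestine, so it was not tested in either.

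The intestinal intervals of c7 and lect2 were wide, at −0.43 (95% interval −2.28 to 1.43) for c7 and −0.38 (−2.13 to 1.37) for lect2. That of c9 was −0.43 (−1.30 to 0.44). Control intestine replicate 2 held the highest intestinal c9 and c8a, and also the highest cpb1, at 1100.4 CPM, where no other intestine passed 246 CPM. The same library had 14.6 CPM of the fibrinogen gene fgb and 4.35 CPM of c5, where the other intestinal libraries had at most 0.861 and 1.96 CPM. Hepatocyte marker sums did not overlap between the diets in intestine, where 0.834% of the single genes tested did not. The sums were 147 to 212 CPM on SDY and 216 to 362 CPM on the control diet. The markers fgb and fgg made up little of them, at 0.365 to 1.01 and 0.104 to 0.978 CPM on SDY on plain totals. On the control diet these had 0.353 to 0.842 and 0.299 to 0.730 CPM without replicate 2. The markers serpind1 and rbp4 overlap genes on the opposite strand, so their counts can include reads of those genes. The part of hepatocyte transcripts in these intestinal values was not tested.

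**Figure D5:**
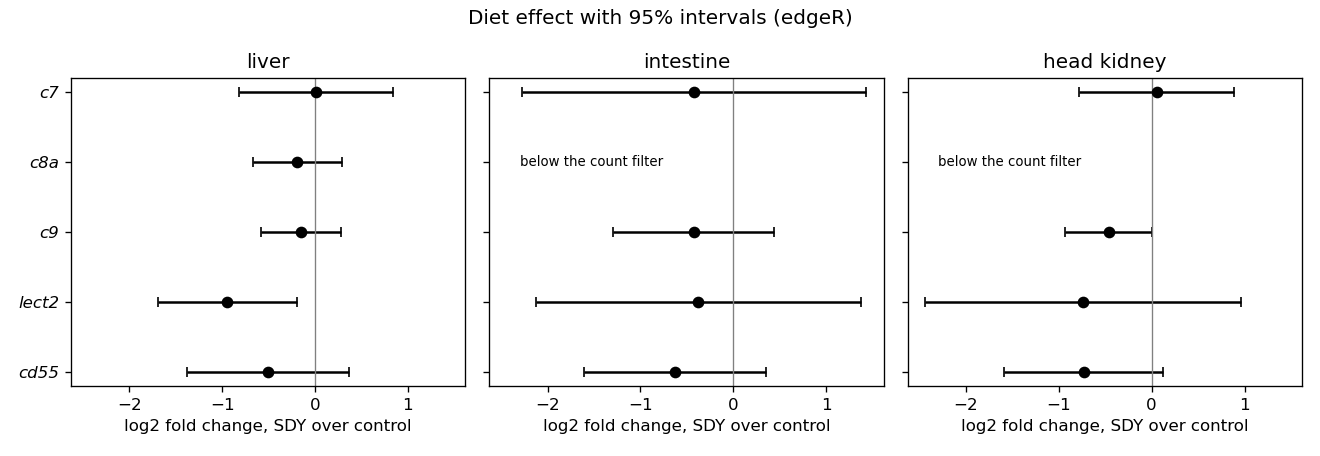
Log2 fold change of SDY over control (horizontal axis) for each member (vertical axis) in liver, intestine and head kidney; points are edgeR estimates and bars 95% intervals, with 5 SDY and 5 control libraries per tissue except 3 controls in head kidney. The liver interval of lect2 lies below 0 (−1.69 to −0.20), every other interval includes 0, and c8a is under the count filter outside liver.

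The diet effects of the tissues were then compared directly, in 1 fit over the 28 libraries. No member passed: 0 of 5 for liver minus intestine, for liver minus head kidney and for head kidney minus intestine, by edgeR and by DESeq2, beside 0.00985%, 0.00985% and 0.00493% of all genes by edgeR and 0.1%, 0.22% and 0.245% by DESeq2. For lect2 the difference of liver minus intestine was −0.57 (SE 0.91, edgeR adjusted p = 0.9999) and that of liver minus head kidney −0.22 (SE 1.09, adjusted p = 0.99998), so the liver value of lect2 was not shown to be particular to liver.

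For cd55 the 3 differences were 0.12 (SE 0.62), 0.22 (SE 0.66) and −0.10 (SE 0.62) in the same order. At an unadjusted p under 0.05 there was 1 member in liver minus intestine (5.82% of genes) and in head kidney minus intestine (7.05%), c8a in both, and 0 in liver minus head kidney (6.24%). The c8a values were 3.30 (SE 1.24) and 3.54 (SE 1.58), with edgeR adjusted p of 0.789 and 0.645. They rest on 2 reads in the SDY intestines against 30 in the control intestines, and without control intestine replicate 2 they were 1.05 and 1.28.

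The wider lists showed no call by diet either. Of the 15 complement genes on the terminal, classical and lectin, and regulator lists, 15 were tested in liver, 10 in intestine and 7 in head kidney, and 0 passed by edgeR or by DESeq2 in each. Their median log2 fold changes were −0.021, −0.43 and 0.17, against −0.0038, −0.011 and 0.023 for all genes tested. At an unadjusted p under 0.05 there were 3 of 15 in liver, all regulators, 0 of 10 in intestine and 0 of 7 in head kidney, beside 10.7%, 6.5% and 11.8% of all genes.

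These 3 were c1qbp, cpn1 and clu. The gene c1qbp, whose product binds C1q and is mostly mitochondrial in mammals, had 138 ± 60.1 CPM in SDY livers and 81.9 ± 27.9 CPM in control livers (0.74, SE 0.32, edgeR adjusted p = 0.440). cpn1 had 378 ± 34 CPM in SDY livers and 283 ± 66.9 CPM in control livers (0.42, SE 0.17, adjusted p = 0.425). clu had 3.61, 8.49, 98.9, 1.35 and 3.36 CPM in SDY livers, against 1.85, 3.05, 7.22, 1.49 and 1.78 CPM in control livers, so its fold change (2.90, SE 1.13, adjusted p = 0.407) came mainly from SDY replicate 3.

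Of the 22 symbols on the acute phase and liver defence list 5 were found, lect2 among them. All 5, lect2 included, had a fold change below 0 in liver. The median of all genes tested there was −0.0038, so a value below 0 was common and the count says little about the list. By edgeR or DESeq2 0 passed the threshold, and 1 (lect2) had an unadjusted p under 0.05 by edgeR. The genes hamp and cp gave −0.40 (SE 1.18) and −0.16 (SE 0.25) in liver, small beside their standard errors. The fibrinogen genes fgb and fgg gave −0.24 (SE 0.23) and −0.39 (SE 0.22) in liver. In intestine they gave −2.65 (SE 1.14) and −2.51 (SE 1.12), with edgeR adjusted p of 0.756 and 0.762, where control replicate 2 held 14.6 and 10.0 CPM and every other library under 1 CPM.

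Receptor genes were followed as well. The gene met, whose product binds LECT2 in mammals, had 161 ± 34.2 CPM in SDY livers and 165 ± 46.7 CPM in control livers (−0.035, SE 0.22). In head kidney met had 0.223, 0.668, 1.81, 1.77 and 0.399 CPM on SDY, against 0.325, 0.375 and 0.313 CPM on the control diet (1.54, SE 0.75, edgeR adjusted p = 0.451). SDY replicates 3 and 4, the highest in met, also had the highest gland marker sums. SDY replicates 2 and 5 lay above every control in met as well, but on few reads: 18 and 11, against 7 to 9 in the controls. The part of gland tissue in the met values was not tested. In intestine met gave −0.54 (SE 0.25, adjusted p = 0.762).

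The related receptor gene mst1r in head kidney had 0.642 ± 0.200 CPM on SDY and 0.397 ± 0.205 CPM on the control diet (0.70, SE 0.44, edgeR adjusted p = 0.534). The endothelial receptor gene tie1 had 31.2 ± 3.78 CPM in SDY livers and 31.3 ± 3.77 CPM in control livers (−0.00039, SE 0.13).

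Of the left-out libraries, head kidney control replicate 1 had 0 reads of all 5 members among its 926 counts, too few to show any of them. Replicate 3 had, on plain totals, 186 CPM of c7, 573 CPM of c8a, 1750.5 CPM of c9 and 1747 CPM of lect2, which is 50.3%, 67.9%, 62.7% and 72.2% of the control liver means. Its cd55 was 80.9 CPM, above the 15.3 to 26.5 CPM of the other head kidney controls and the 1.51 CPM mean of control livers.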

How the data were processed

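RNA was extracted with TRIzol from 5 fish per tissue and diet and made into poly(A)-selected, directional libraries, per the labels' protocols. The authors deposited raw read counts per gene, made with featureCounts 1.5.3 over mRNA features summed by gene, with reads over overlapping genes counted for each and no strand option, per the file headers. Trim Galore 0.4.4, FastQC, HISAT2 2.1.0 and DESeq2 are named in the submitters' processing notes. The members, gene lists and tests were chosen with earlier results of these data known. Members were matched by exact symbol. No label gives the fishes' tanks, and p-values cover only variation among these libraries.

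Counts were tested with edgeR 4.0.16 (R 4.3.3): TMM scaling, filterByExpr, quasi-likelihood test, Benjamini-Hochberg adjustment over all genes tested, threshold 0.05. Diet was tested within each tissue, and tissue contrasts and differences of diet effects in 1 fit of 28 libraries with 6 group means. Each printed SE is the absolute log2 difference divided by the square root of the test's F value, and the intervals were built from it. For large tissue differences such an SE need not be the spread of the estimate. Printed CPM are counts over the total scaled by TMM, whose factors were 0.415 to 0.626 in liver, 1.07 to 1.49 in intestine and 1.44 to 1.70 in head kidney. The tests were checked on simulated counts with large changes, put into genes with many reads, and a single fixed spread. That check does not cover small differences, wider spread or genes with few reads. Alternatives were DESeq2 1.42.0, RLE scaling, plain totals, no low-count filter, a replicate block, the left-out libraries kept, and each library left out in turn. Other genes named in the text are, from each list, those with the 3 smallest p per diet comparison and the 2 most abundant where the list is highest, plus the 3 nearest profiles of each member. The genes c6, c8b, c8g, colec11, hamp, cp, dab2 and cpb1 were named after their values were seen.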

Additional observations from a re-analysis of the deposited data

Results flagged for a closer look

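Within groups of 5 libraries, 7 of 25 sets of member values held a library flagged by Dixon's test. There the gap to the nearest value, divided by the range of the group, exceeded the 95% critical value of 0.71. A share of about 1 in 20 is the rate for independent, normally spread values. That was not shown to hold for these CPM, and the same libraries recur between genes, so no excess is claimed. For c7 the flagged libraries were SDY intestine replicate 1 (71.1 CPM) and control intestine replicate 5 (96.4 CPM). For c8a they were SDY head kidney replicate 1 (0.297 CPM) and control intestine replicate 2 (1.19 CPM). For c9 they were SDY head kidney replicate 1 (21.9 CPM), control intestine replicate 2 (9.41 CPM) and control liver replicate 1 (7064 CPM).

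The left-out head kidney control replicate 3 held signal far above the other head kidney controls for every member, on plain totals: 186 CPM of c7, 573 CPM of c8a, 1750.5 CPM of c9, 80.9 CPM of cd55 and 1747 CPM of lect2.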

How the results depend on the processing

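Genes past the threshold by diet in head kidney numbered 1 in the reported fit, 248 by DESeq2, 0 with control replicates 1 and 3 kept, 0 with a replicate block and 1 to 2 with single libraries left out. In intestine they numbered 0, against 55 by DESeq2 and 0 to 3 (3 without SDY replicate 2). In liver they numbered 0, against 103 by DESeq2, 29 in the fit of 28 libraries and 0 to 17 (17 without SDY replicate 3). For differences of diet effects, liver minus intestine gave 2, against 21 by DESeq2, 4 with controls kept, 0 with the block and 0 to 8 with libraries left out. Liver minus head kidney gave 2, against 41, 476, 0 and 1 to 4, and 1 on plain totals. Head kidney minus intestine gave 1, against 49, 208, 0 and 0 to 2.

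With head kidney controls 1 and 3 kept, the head kidney diet effect was −4.62 for c7, −4.48 for c9, −1.67 for cd55 and −9.10 for lect2 (edgeR adjusted p = 0.390 each). Liver minus head kidney was 4.58 for c7, 9.69 for c8a (edgeR adjusted p = 0.0212) and 8.08 for lect2 (adjusted p = 0.0252), and head kidney minus intestine was −4.13 for c7 and −6.38 for c8a. Intestine over head kidney was 0.34 for lect2 (adjusted p = 0.735) and −5.40 for c8a (adjusted p = 0.000652). With the block, c7 in liver was −0.063 and cd55 for liver minus intestine −0.13. On plain totals, head kidney minus intestine was 0.11 for c9 and 0.0012 for cd55.

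Leaving out single libraries turned the sign of uncalled diet effects: c7 ran from −0.25 to 0.35 in head kidney, −1.40 to 0.58 in intestine and −0.21 to 0.26 in liver, and in intestine c9 ran from −0.61 to 0.010 and lect2 from −1.30 to 0.27. Liver minus intestine ran from −0.55 to 1.43 for c7, −0.16 to 0.47 for c9, −0.11 to 0.35 for cd55 and −1.21 to 0.36 for lect2. Liver minus head kidney ran from −0.33 to 0.29 for c7, −0.87 to 0.51 for c8a and −0.56 to 0.37 for lect2. Head kidney minus intestine ran from −0.53 to 1.45 for c7, −0.47 to 0.16 for c9, −0.41 to 0.13 for cd55 and −0.99 to 0.57 for lect2. The causes were not tested. The fold change of lect2 in liver stayed between −1.27 and −0.77.

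Plain totals moved the median of all genes to −1.38 (liver over intestine), −1.50 (liver over head kidney) and −0.24 (intestine over head kidney). Calls then split into 2492 higher and 14953 lower, 3186 and 14161, and 6414 and 8710, against 7180 and 8815, 7604 and 7611, and 7820 and 7108 with TMM. Every member kept its direction and call in these contrasts. Of the same-numbered SDY and control pairs within a tissue, 4 of 13 had deviations correlated over 0.1 (−0.200 to 0.586). Among SDY libraries, 2 of 3 in head kidney, 1 of 5 in intestine and 0 of 5 in liver correlated best with the control of their own number. These values compare diets within a tissue. Between tissues, same-numbered libraries of the same diet had correlations from −0.141 (SDY head kidney and intestine, replicate 2) to 0.215 (control head kidney and liver, replicate 5). Whether such libraries came from the same fish was not tested. The block changed no member's call. Depth limits c8a outside liver and cd55 in liver.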
